A study of Mus musculus with 2 samples.

Results

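The hedgehog pathway genes Shh, Ihh, Ptch1, Smo, Gli1, Gli2, Gli3, Hhip and Gas1 were described in intestine of mouse embryos at embryonic day 15.5. They were chosen as the listed ligands, receptors, co-receptors and effectors of the pathway, and they are 9 of the 43346 Ensembl genes in each gene table and 29 of the 103639 Ensembl transcripts in each transcript table. The rule uses their names and not their values, but the members were chosen with earlier results of these data known. Total RNA of strain B6NCrl was sequenced in 2 libraries of the same group, and the labels name no allele or treatment. Each library was made from 10 ng of RNA over 200 nucleotides long, with spike-in RNAs added. Replicate 2 came from a pool of 62 embryos and replicate 1 from a pool of 78 embryos, both of mixed sex. Each value thus averages over many animals and over every cell type in the sampled tissue. The libraries held 39953610 estimated counts on mouse genes in replicate 2 and 33665128 in replicate 1. With a single group of 2 pools no differential test was possible, and the spread between the pools is the only replicate error.

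Hedgehog proteins are secreted, lipid-modified signals. Without ligand, the membrane protein Ptch1 holds the transducer Smo inactive and Gli proteins are processed into repressors; ligand binding to Ptch1 releases Smo, which acts in the primary cilium, and Gli proteins then activate targets that include Ptch1, Hhip and Gli1 themselves. In the fetal gut the epithelium makes Shh and Ihh, and the mesenchyme around it, including precursors of smooth muscle, carries the receptors and responds. The level of a message in whole intestine depends on how many cells make it and on how much each cell holds, and these cannot be told apart in bulk RNA.

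Levels are given in TPM, transcript abundance that the authors scaled by effective transcript length and by library total, so that different genes can be set side by side. Detection required 1 TPM or more in each of the libraries. All 9 hedgehog genes were detected, against 34.6% of all Ensembl genes and 62.7% of protein-coding genes. Because of how the members were chosen, this count does not show that pathway genes are detected more often than others. Their median TPM was 18.8 in replicate 2 and 17.8 in replicate 1. Among all detected protein-coding genes the median was 17.8 in replicate 2 and 17.7 in replicate 1, so the middle of the hedgehog set lay close to that of an ordinary detected gene. The members ran from Gas1 at 71.6 ± 9.52 TPM to Gli2 at 6.04 ± 0.0919 TPM (SD, n = 2), a ratio of 13.1 in replicate 2 and 10.6 in replicate 1.

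The order from high to low was Gas1, Ihh, Smo, Ptch1, Hhip, Gli3, Shh, Gli1 and Gli2. Neighbours were called apart only where both the library values and the deposited credibility bounds, whose level is not stated, did not overlap. Of the 8 neighbouring pairs, 4 were apart, namely Gas1 over Ihh, Ptch1 over Hhip, Hhip over Gli3, and Gli3 over Shh. Ihh, Smo and Ptch1 followed each other closely, with overlapping bounds between Ihh and Smo and between Smo and Ptch1, although Ihh and Ptch1 were apart from each other. Shh, Gli1 and Gli2 overlapped in their library values and had no order beyond their spread. Over all 36 pairs of members, 31 were apart. Among the 13474 detected protein-coding genes, the share with a higher mean level was 16.8% for Gas1, 40.8% for Ihh, 42.8% for Smo, 45.5% for Ptch1, 49.2% for Hhip, 62.0% for Gli3, 74.9% for Shh, 76.1% for Gli1 and 76.3% for Gli2. The co-receptor, Ihh, receptor and Hhip messages thus lay in the upper part of the detected genes and the Gli and Shh messages in the lower part.

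**Figure D1:**
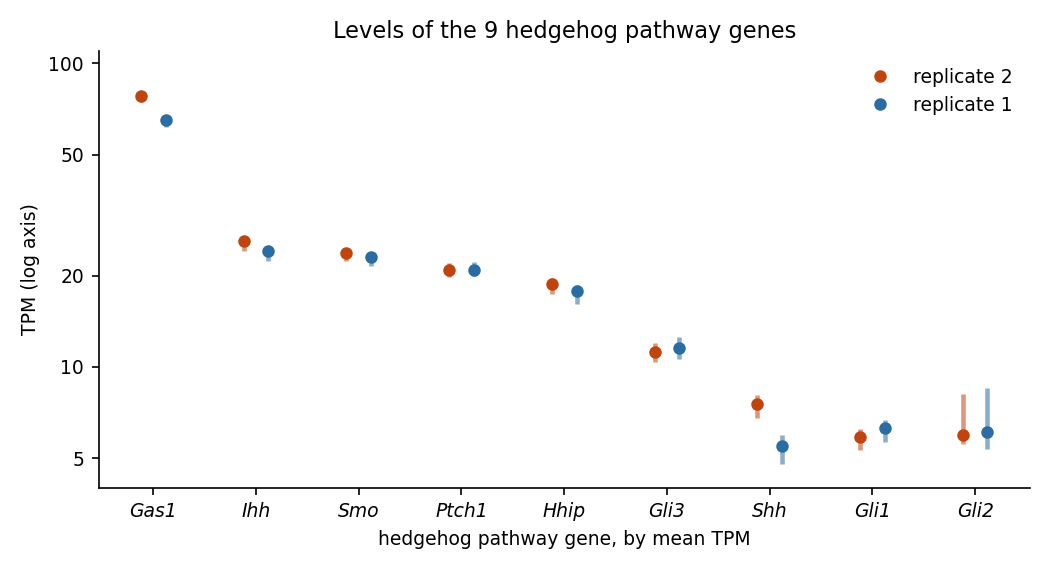
TPM of the 9 hedgehog genes on a log axis, with replicate 2 and replicate 1 as separate points and the deposited credibility bounds as vertical lines. Gas1 stands above the rest at 78.3 and 64.9 TPM in replicate 2 and replicate 1, and Shh, Gli1 and Gli2 share the lowest level between 5.50 and 7.56 TPM.

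Ihh was the leading ligand message, and Shh stood well below it. Ihh (Indian hedgehog, chromosome 1, 74945315 to 74951672, minus strand of GRCm38) had 25.9 TPM in replicate 2 and 24.1 TPM in replicate 1, from 1651 and 1316 estimated counts in replicate 2 and replicate 1. Shh (Sonic hedgehog, chromosome 5, 28456815 to 28467256, minus strand) had 7.56 TPM in replicate 2 and 5.50 TPM in replicate 1, from 547 and 341 estimated counts. Ihh was above Shh in both libraries, by a ratio of 3.43 in replicate 2 and 4.39 in replicate 1, and the bounds did not overlap. Dhh, Desert hedgehog, the ligand best known from testis and peripheral nerve, had 1.49 TPM in replicate 2 and 1.31 TPM in replicate 1.

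Of the summed TPM of the 3 ligand genes, Ihh held 74.1% in replicate 2 and 78.0% in replicate 1. Shh held 21.6% in replicate 2 and 17.8% in replicate 1, and Dhh held 4.26% in replicate 2 and 4.23% in replicate 1. The Ihh share of the estimated counts of the 3 genes, which do not correct for length, was 72.0% in replicate 2 and 76.1% in replicate 1. The 95% Wilson intervals ran over 70.2 to 73.8% for replicate 2 and 74.1 to 78.1% for replicate 1. These intervals, like all intervals given here, cover counting error only. They did not overlap, so the ligand balance differed between the pools by more than counting error, with Ihh leading in both.

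Shh was the member that differed most between the pools. Its level was higher in replicate 2, with a log2 ratio of 0.40 on the log2(TPM + 1) scale, and its deposited bounds were 6.78 to 8.07 TPM in replicate 2 and 4.80 to 5.97 TPM in replicate 1. In CPM, counts scaled by the total on mouse genes, Shh was 1.35-fold higher in replicate 2, with a 95% interval of 1.18 to 1.55. The difference stayed below the 1.5-fold limit used to call a difference. Parts of the Shh message lie opposite other annotated genes, namely the antisense RNA 9530036O11Rik over 446 exon bases and the long noncoding RNA Gm26894 over 361 exon bases. Of the 31-base words of the Shh transcript, 25.5% also occur in transcripts of other genes on either strand. Gm26894 had 5.39 TPM in replicate 2 and 4.78 TPM in replicate 1, and 9530036O11Rik had 0.37 TPM in replicate 2 and 0.21 TPM in replicate 1. No source used here says whether the counting used strand, so reads of Shh and of these partners may not have been kept apart.

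Organs beside the gut that make hedgehog ligands were looked at through their markers. Cartilage makes Ihh in the embryo: 2 of 5 cartilage markers were detected, with a summed TPM of 4.86 in replicate 2 and 4.24 in replicate 1, carried by Col2a1 at 2.23 TPM in replicate 2 and 1.94 TPM in replicate 1 and by Col9a1 at 2.12 TPM in replicate 2 and 1.72 TPM in replicate 1. Col10a1, the collagen of hypertrophic cartilage, had 0.09 TPM in replicate 2 and 0.17 TPM in replicate 1. The part of such tissue in the level of Ihh was not tested. Notochord and floor plate make Shh: 2 of 5 markers were detected, with sums of 9.67 TPM in replicate 2 and 10.1 TPM in replicate 1, mostly from Ntn1 at 7.58 TPM in replicate 2 and 7.76 TPM in replicate 1. Nkx6-1, the other detected marker, had 1.25 TPM in replicate 2 and 1.52 TPM in replicate 1, and the notochord factor T had 0.38 TPM in replicate 2 and 0.25 TPM in replicate 1. Noto, also a notochord factor, had 0 counts in both libraries; 3 counts would be 0.107 TPM in replicate 2 and 0.124 TPM in replicate 1, and its deposited upper bounds were 0.234 TPM in replicate 2 and 0.271 TPM in replicate 1. The part of such tissue in the level of Shh was not tested.

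None of 4 lung endoderm markers was detected, with sums of 0 TPM in replicate 2 and 0.30 TPM in replicate 1, and the lung factor Nkx2-1 had 0 counts in both libraries. For Nkx2-1, 3 counts would be 0.0443 TPM in replicate 2 and 0.0516 TPM in replicate 1, and the deposited upper bounds were 0.0696 TPM in replicate 2 and 0.0812 TPM in replicate 1. Of 5 stomach markers 2 were detected, with sums of 5.10 TPM in replicate 2 and 11.3 TPM in replicate 1. The sum was carried by Tff2, at 2.07 TPM in replicate 2 and 6.45 TPM in replicate 1, and Cldn18, at 2.01 TPM in replicate 2 and 4.03 TPM in replicate 1. Sox2, at 0.67 TPM in replicate 2 and 0.48 TPM in replicate 1, and Gkn1, at 0.35 TPM in replicate 2 and 0.19 TPM in replicate 1, went the other way, and Gkn2 had 0 TPM in replicate 2 and 0.18 TPM in replicate 1. The part of these markers in the difference in Shh was not tested.

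Markers of gut tissue were detected. Those of exocrine pancreas were detected too, with a higher summed TPM than gut epithelium in both libraries. All 6 markers of gut epithelium were detected, with a summed TPM of 1720 in replicate 2 and 1762 in replicate 1, as were all 6 of gut mesenchyme and smooth muscle, with 2836 TPM in replicate 2 and 2679 TPM in replicate 1, and all 6 of enteric neurons and glia. All 6 exocrine pancreas markers were also detected and all differed over 1.5-fold between the pools, with a summed TPM of 1875 in replicate 2 and 5382 in replicate 1. The part of pancreatic tissue in the levels of the hedgehog genes was not tested. Spike-in RNAs took 1.76% of counts in replicate 2 and 2.16% in replicate 1.

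The receptor Ptch1 and the transducer Smo stood at nearly the same level. Ptch1, the receptor that binds all hedgehog ligands (chromosome 13, 63508328 to 63573598, minus strand), had 20.8 TPM in replicate 2 and 20.9 TPM in replicate 1, from 3839 and 3386 estimated counts in replicate 2 and replicate 1, and its SD of 0.0354 TPM was the smallest of the 9 members. Smo, the membrane protein that Ptch1 restrains (chromosome 6, 29735503 to 29761365, plus strand), had 23.7 TPM in replicate 2 and 23.0 TPM in replicate 1, from 2432 and 2030 estimated counts. Of its 31-base words, 4.24% occur in other genes, most of them in Gm4066, so its count carries that uncertainty. The ratio of Ptch1 to Smo was 0.880 in replicate 2 and 0.907 in replicate 1, and the bounds of the 2 genes overlapped.

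Gas1 and Hhip bind ligand at the cell surface with opposite known roles. Gas1, a membrane-anchored co-receptor that aids ligand binding (chromosome 13, 60174405 to 60177365, minus strand), was the highest member at 78.3 TPM in replicate 2 and 64.9 TPM in replicate 1, from 6256 and 4448 estimated counts. Gas1 exceeded the other co-receptors Boc, at 8.64 TPM in replicate 2 and 8.16 TPM in replicate 1, and Cdon, at 6.73 TPM in replicate 2 and 5.48 TPM in replicate 1. Gas1 was thus the highest of these co-receptors in both libraries. The ratio of Gas1 to Boc was 9.07 in replicate 2 and 7.95 in replicate 1, and that of Gas1 to Cdon was 11.6 in replicate 2 and 11.8 in replicate 1.

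Gas1 was, with Shh, a member whose bounds did not overlap between the pools: they were 74.8 to 78.6 TPM in replicate 2 and 61.5 to 65.2 TPM in replicate 1, and the log2 ratio was 0.27. Its gene has 1 exon, and 589 bases of it lie opposite the long noncoding RNA Gm48488, which was not analysed here; 18.2% of its 31-base words occur in other genes. Hhip, a membrane protein that binds and traps ligand (chromosome 8, 79965851 to 80058006, minus strand), had 18.8 TPM in replicate 2 and 17.8 TPM in replicate 1, from 2035 and 1574 estimated counts. It lay just under Ptch1, with ratios to Ptch1 of 0.902 in replicate 2 and 0.851 in replicate 1.

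The 3 Gli transcription factors were the lowest group of the set together with Shh. Gli3, which acts largely as the repressor of the pathway (chromosome 13, 15463235 to 15730026, plus strand), had 11.2 TPM in replicate 2 and 11.6 TPM in replicate 1, from 1794 and 1468 estimated counts. Gli1, an activator whose own transcription is switched on by the pathway (chromosome 10, 127329882 to 127341974, minus strand), had 5.89 TPM in replicate 2 and 6.31 TPM in replicate 1, from 586 and 539 estimated counts. Gli2, the main primary activator (chromosome 1, 118834132 to 119053619, minus strand), had 5.97 TPM in replicate 2 and 6.10 TPM in replicate 1, from 785 and 600 estimated counts. Gli3 was above the other Gli genes in both libraries, and Gli1 and Gli2 changed places between the libraries.

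Summed over its transcripts, Gli3 exceeded Gli1 1.90-fold in replicate 2 and 1.83-fold in replicate 1, and the bounds did not overlap. The longest coding form alone, Gli3-201, had 6.70 TPM in replicate 2 and 6.11 TPM in replicate 1. That was close to Gli1, which was lower than this form in replicate 2 and higher in replicate 1. Of the summed TPM of the Gli genes, Gli3 held 48.5% in replicate 2 and 48.2% in replicate 1, Gli2 held 25.9% in replicate 2 and 25.4% in replicate 1, and Gli1 held 25.6% in replicate 2 and 26.3% in replicate 1. These message levels do not show how much of each protein is in activator or repressor form. Gli1 shares 62 exon bases with Arhgap9 on the opposite strand, a gene at 5.30 TPM in replicate 2 and 4.73 TPM in replicate 1, and further bases with the antisense RNA Gm47200, which was not analysed here. Gli3 shares 188 exon bases with Gm6556 on the opposite strand, at 0.70 TPM in replicate 2 and 0.35 TPM in replicate 1.

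No member differed over 1.5-fold between the libraries (0 of 9), against 4.61% of the 15978 genes with a TPM of at least 1 in either library. The share was 2.44% at a TPM of at least 5 in either library. Among the 13474 detected protein-coding genes, 182 passed the limit, so 0 of 9 does not set the members apart. Deposited bounds failed to overlap for 2 of 9 members, Shh and Gas1, against 20.3% of the 15978 genes, a share close to that of all genes. Replicate 2 was higher for 5 members and replicate 1 for 4. The median log2 ratio was 0.04 over the members and 0.02 over all these genes. The members shared no direction. For Gli2 and Gli3 the sign depended on the unit: log2 ratios in TPM were -0.03 for Gli2 and -0.04 for Gli3, while in CPM both were higher in replicate 2, 1.10-fold for Gli2 and 1.03-fold for Gli3.

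**Figure D2:**
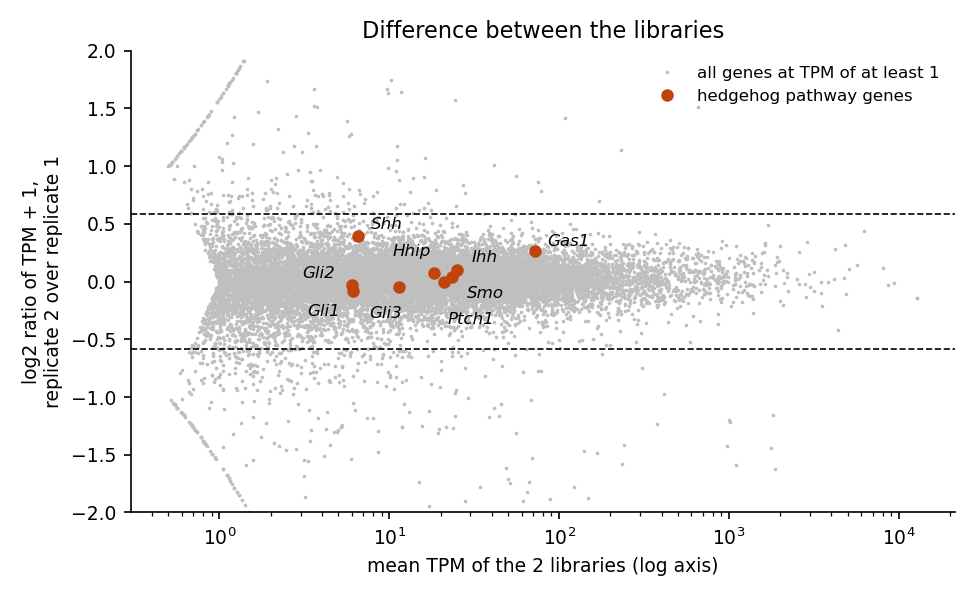
Log2 ratio of replicate 2 over replicate 1, from TPM + 1, against mean TPM on a log axis for 15978 genes (grey) and the 9 hedgehog genes (coloured), with dashed lines at 1.5-fold; 89 grey points lie outside the plotted range. All hedgehog genes lie between the dashed lines, with Shh at 0.40 and Gas1 at 0.27 the highest.

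The genes differed in how their output was spread over annotated transcripts. Of the 29 transcripts, 14 reached 1 TPM in each library, against 28.3% of all annotated transcripts, and 8 were at 0 in both. Shh, Smo, Gli1 and Gas1 have 1 transcript each in the tables, and the other 5 genes are described below. The deposited percent of a gene's output on each transcript is a statistical split of reads that several transcripts share, so its precision is lower than that of the gene's level.

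**Figure D3:**
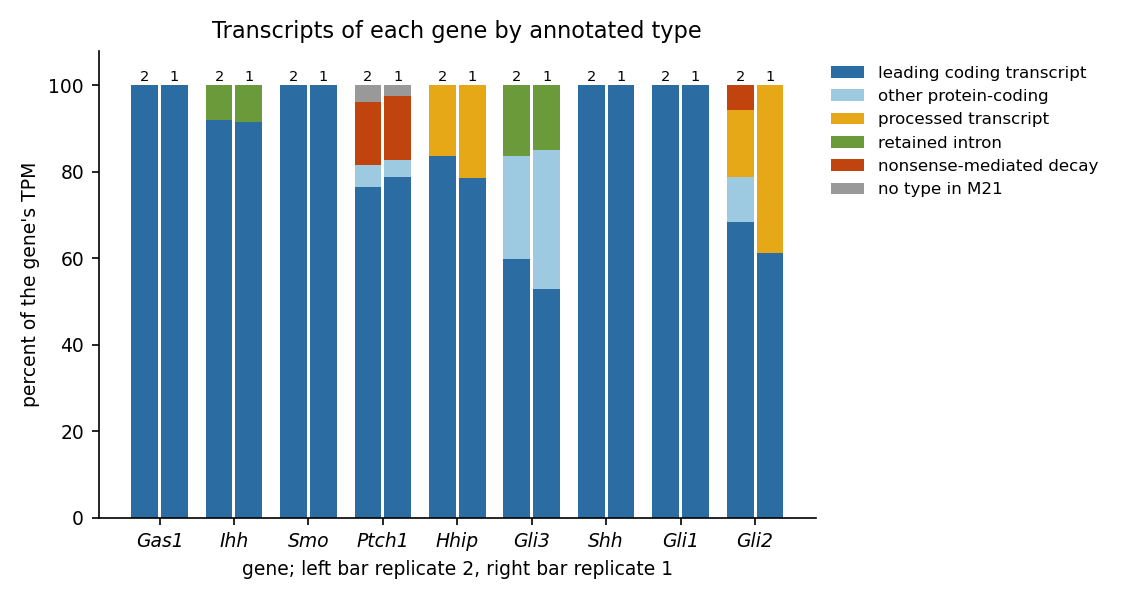
Percent of each hedgehog gene's TPM, in replicate 2 (left bar) and replicate 1 (right bar), on its leading coding transcript, other coding transcripts and the annotated noncoding, retained intron and decay types. Shh, Smo, Gli1 and Gas1 stand at 100 on a single coding transcript, while Gli3-201 holds 60.0 percent in replicate 2 and 52.9 percent in replicate 1.

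Most of the Ptch1 output fell on a transcript with a short first exon of its own. The 3 Ptch1 transcripts below differ in their first exon and share the next one. They also differ farther on. Ptch1-202 has an intron between its exons 23 and 24, a stretch that Ptch1-201 and Ptch1-204 keep in their last exon. Ptch1-204 has a further intron between its exons 14 and 15. The part of each of these stretches in the shares given below was not tested. The 3 transcripts are printed from GENCODE M21 on GRCm38, minus strand, to show where their first exons part. Each line holds the last 30 bases of the transcript's own first exon in lower case and, in capitals, the first 30 bases of the shared second exon, which lies on chromosome 13 at 63563786 to 63563815.
Ptch1-202: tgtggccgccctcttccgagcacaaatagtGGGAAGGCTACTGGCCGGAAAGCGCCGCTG
Ptch1-204: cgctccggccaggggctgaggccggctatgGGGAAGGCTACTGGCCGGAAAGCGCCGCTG
Ptch1-201: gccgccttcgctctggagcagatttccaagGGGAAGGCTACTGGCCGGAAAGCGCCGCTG

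Ptch1-202 held 76.5% of the Ptch1 output in replicate 2 and 78.9% in replicate 1. Its first exon of 78 bases, at 63564458 to 63564535, is noncoding, and the annotated coding sequence of 1297 codons starts in exon 3. Ptch1-201, with 1434 codons the longest coding form, held 3.15% in replicate 2 and 3.16% in replicate 1; its first exon of 374 bases starts 1200 bases upstream and carries the start codon. Ptch1-204, annotated as a target of nonsense-mediated decay, starts 8925 bases upstream and held 13.5% in replicate 2 and 13.8% in replicate 1. The order of these 3 forms was the same in both libraries. Among the M21 sequences, only 78 of the 6972 words of 31 bases in Ptch1-202 are absent from the gene's other transcripts, so few stretches tell this form from the others there. The shares were estimated with GENCODE M4, where Ptch1-206 is 3418 bases long against 10383 in M21. Words were not counted on M4 sequences. A transcript of 305 bases with no entry in M21 held 3.95% in replicate 2 and 2.52% in replicate 1.

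**Figure D4:**
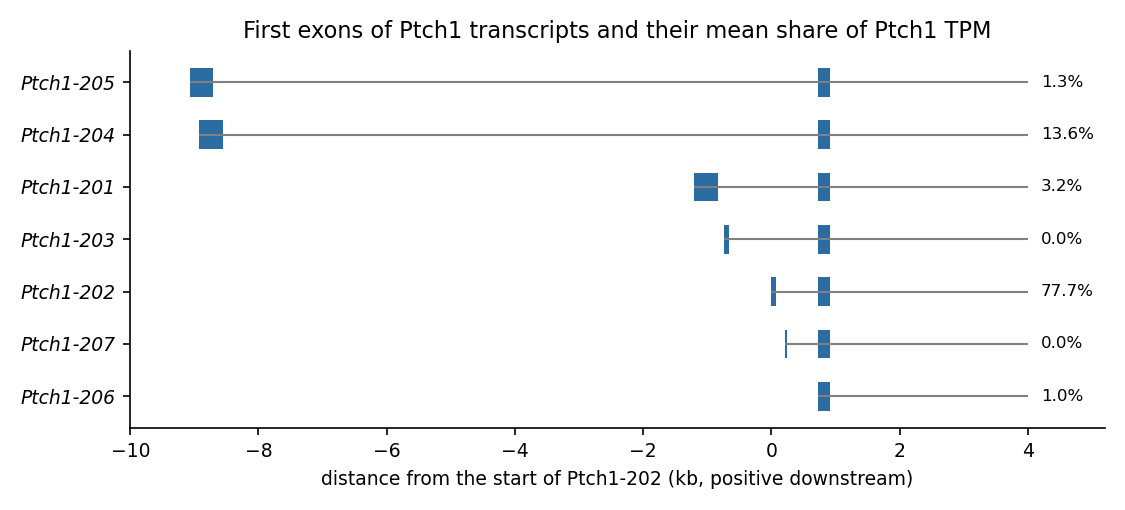
Exons at the start of the Ptch1 transcripts by distance in kb (kilobases) from the start of Ptch1-202. The mean percent of the gene's TPM over the 2 libraries stands beside each transcript. Ptch1-202 holds 77.7 percent, against 3.16 percent for Ptch1-201, whose first exon starts 1200 bases upstream.

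The promoter that RefSeq (GRCm38.p6) gives for Ptch1 belongs to the start of Ptch1-201, the form with the small share, and is shown because Ptch1 is a known target of Gli proteins. It covers chr13:63565706-63565985 on the minus strand; the 250 bases before the start are in lower case and the first 30 bases after it in capitals.
Ptch1 promoter: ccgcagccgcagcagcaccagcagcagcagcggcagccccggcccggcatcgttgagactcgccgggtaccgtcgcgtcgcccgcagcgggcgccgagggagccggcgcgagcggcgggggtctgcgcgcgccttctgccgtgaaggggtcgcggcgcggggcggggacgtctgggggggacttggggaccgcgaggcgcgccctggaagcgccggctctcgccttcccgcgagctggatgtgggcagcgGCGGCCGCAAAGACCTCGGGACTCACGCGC

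Windows of 300 bases around the start, as RefSeq gives them, were matched for 7 of the 9 members, all but Shh and Gli1. The Gli binding consensus GACCACCCA, searched on both strands, was in 0 of the 7 windows and in 0.253% of all 32851 windows. Its core ACCACCC, which the consensus contains, was in 1 of the 7 windows, that of Gli2, and in 4.61% of all windows. The match in Gli2 is printed in capitals with its flanks, at chr1:119053808-119053834 on the minus strand; the motif itself is on the other strand, 205 bases before the start.
Gli2 promoter match: tccccctccaGGGTGGTgtccccccac
A match is a run of letters and not a binding site, and the windows do not reach distant enhancers.

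Ihh was mostly in its coding form: Ihh-201 held 92.0% of the output in replicate 2 and 91.4% in replicate 1, and the retained intron form Ihh-202 held the other 8.04% in replicate 2 and 8.57% in replicate 1. For Hhip, the coding Hhip-201 held 83.6% in replicate 2 and 78.6% in replicate 1, and the noncoding Hhip-202 held 16.4% in replicate 2 and 21.4% in replicate 1. Hhip-201 is 4582 bases long in the deposited tables, which use GENCODE M4, and 9074 bases long in M21. Its level per length therefore depends on where the annotation ends the message. Part of Hhip, 175 exon bases, also lies opposite the RNA Gm27820, which had 4.02 TPM in replicate 2 and 6.79 TPM in replicate 1.

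Gli3 was spread over 3 detected transcripts. Gli3-201, which encodes 1583 codons, held 60.0% in replicate 2 and 52.9% in replicate 1, and Gli3-202, which encodes 596 codons, held 23.7% in replicate 2 and 32.3% in replicate 1. The retained intron form Gli3-203 held 16.3% in replicate 2 and 14.8% in replicate 1. Gli3-201 led in both libraries, and only 46 of the words of 31 bases in Gli3-202 are its own. As background, the known truncated Gli3 repressor is made by cutting the full-length protein.

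For Gli2, short transcripts with few counts moved between the pools. The full-length Gli2-201 had 4.08 TPM in replicate 2 and 3.73 TPM in replicate 1, or 68.5% of the output in replicate 2 and 61.2% in replicate 1. The processed transcript Gli2-202, which is 367 bases long, held 15.6% in replicate 2 and 38.8% in replicate 1, but these shares rest on 7.0 and 15.2 estimated counts in replicate 2 and replicate 1. Gli2-206 held 10.3% in replicate 2 and 0% in replicate 1, from 22.5 and 0 estimated counts. Gli2-204 had 10.3 and 0 estimated counts in replicate 2 and replicate 1. When TPM was summed only over transcripts of at least 500 bases, a choice made after the values were seen, Gli2 stood at 5.04 TPM in replicate 2 and 3.73 TPM in replicate 1. Its share of the Gli total was then 22.8% in replicate 2 and 17.3% in replicate 1, so the pools were farther apart in this sum than for the gene as a whole. That gap rests in part on the few counts of Gli2-206 and Gli2-204, and Gli2-201 alone differed less.

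The ligands and the Gli genes belong to families, yet their messages could be told apart by words of 31 bases. No such word was shared between the leading transcripts of Ihh and Shh, or of any pair of Gli genes. The longest run of bases shared by Ihh-201 and Shh-201, coding in both, was 17 bases, and that shared by Gli2-201 and Gli3-201, also coding in both, was 25 bases. They are printed to show how short the common stretches are, with the Ihh run on chromosome 1 and the Gli2 run on chromosome 1 of GRCm38.
run shared by Ihh-201 and Shh-201: atgaaccagtggcctgg
run shared by Gli2-201 and Gli3-201: aagaaggagttcgtgtgccgctggc

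Around the 9 members, 6 lists of further pathway genes and of Gli relatives held 74 genes. Of these, 66 were detected (89.2%), against the 62.7% of protein-coding genes given above. The 8 zinc finger relatives of Gli, of which 2 were detected, are counted in, so 89.2% is not a share of pathway genes alone. The lists too were chosen with earlier results of these data known, and the share does not show enrichment. None of the 67 listed genes with a TPM of at least 1 in either library differed over 1.5-fold between the libraries, against 4.61% of all genes at that level. Few of the detected protein-coding genes did so either, 182 of 13474.

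Ligand release genes were low. Of 9 genes for making and releasing ligand, Dhh among them, 8 were detected, with a median of 2.60 TPM in replicate 2 and 2.59 TPM in replicate 1. The glypicans Gpc6, at 26.7 TPM in replicate 2 and 26.3 TPM in replicate 1, and Gpc4, at 21.7 TPM in replicate 2 and 19.2 TPM in replicate 1, were the highest; both are cell-surface proteoglycans. Disp1, which releases lipid-modified ligand from the producing cell, had 7.73 TPM in replicate 2 and 8.98 TPM in replicate 1. Hhat, the enzyme that attaches palmitate to the ligand, had 8.11 TPM in replicate 2 and 7.65 TPM in replicate 1. The gene that missed the limit was Hhatl, a relative of Hhat named after its values were seen, at 1.19 TPM in replicate 2 and 0.97 TPM in replicate 1.

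Of 11 other receptors, co-receptors and membrane regulators, 10 were detected, with a median of 6.78 TPM in replicate 2 and 7.63 TPM in replicate 1. Gpc3, a glypican that competes with Ptch1 for ligand, stood far above the rest at 506 TPM in replicate 2 and 419 TPM in replicate 1. Mgrn1, a ubiquitin ligase that lowers Smo at the membrane, had 50.5 TPM in replicate 2 and 56.0 TPM in replicate 1. The cilium base proteins Evc2 and Evc, which act with Smo, followed at 9.84 ± 0.332 TPM and 9.23 ± 0.240 TPM (SD, n = 2). Gpr161, a ciliary receptor that keeps the pathway off, was the gene under the limit, at 0.77 TPM in both libraries.

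The cytoplasmic regulators of Gli proteins were the highest list. All 14 were detected, with a median of 32.5 TPM in replicate 2 and 30.1 TPM in replicate 1. The 4 highest were Gnas, the stimulatory G protein subunit, at 1290 ± 92.6 TPM, Prkar1a, a regulatory subunit of protein kinase A, at 232 ± 10.7 TPM, Csnk1a1, a casein kinase, at 176 ± 13.6 TPM, and Spop, an adaptor for Gli degradation, at 106 ± 2.43 TPM (SD, n = 2). All of these serve other pathways too. Sufu, the protein that holds Gli factors in the cytoplasm, had 17.6 TPM in replicate 2 and 16.9 TPM in replicate 1, and exceeded Gli1 by 2.98-fold in replicate 2 and 2.68-fold in replicate 1. Kif7, the ciliary kinesin of the pathway, was the lowest of the list at 2.55 TPM in replicate 2 and 2.44 TPM in replicate 1.

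All 20 primary cilium genes were detected, with a median of 8.88 TPM in replicate 2 and 8.23 TPM in replicate 1. The highest were the motor subunit Kif3a at 38.8 ± 0.141 TPM, the intraflagellar transport genes Ift52 at 38.0 ± 2.34 TPM and Ift57 at 17.9 ± 0.134 TPM, and the lipid phosphatase Inpp5e at 13.3 ± 1.56 TPM (SD, n = 2). The median of this list was below that of detected protein-coding genes, and all its members lay between 2.79 and 38.8 TPM by their means.

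Of the 12 genes listed as hedgehog-responsive in gut mesenchyme or other tissues, all were detected, with a median of 28.0 TPM in both libraries. Foxf1, a mesenchymal forkhead factor, had 106 TPM in replicate 2 and 86.9 TPM in replicate 1, and Foxl1, a factor of the mesenchyme under the epithelium, had 7.82 TPM in replicate 2 and 7.43 TPM in replicate 1. Bmp4, a secreted signal of the same mesenchyme, had 48.6 TPM in replicate 2 and 57.1 TPM in replicate 1. The highest of the list was the cyclin gene Ccnd2 at 160 ± 13.2 TPM, with Mycn at 67.8 ± 10.6 TPM and the cyclin gene Ccnd1 at 59.2 ± 6.48 TPM behind Foxf1 (SD, n = 2). Many inputs beside hedgehog act on these genes, and their levels in 1 tissue do not show which part depends on it. In the RefSeq windows of 6 genes of this list, neither Gli motif was found in any of 7 windows.

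**Figure D5:**
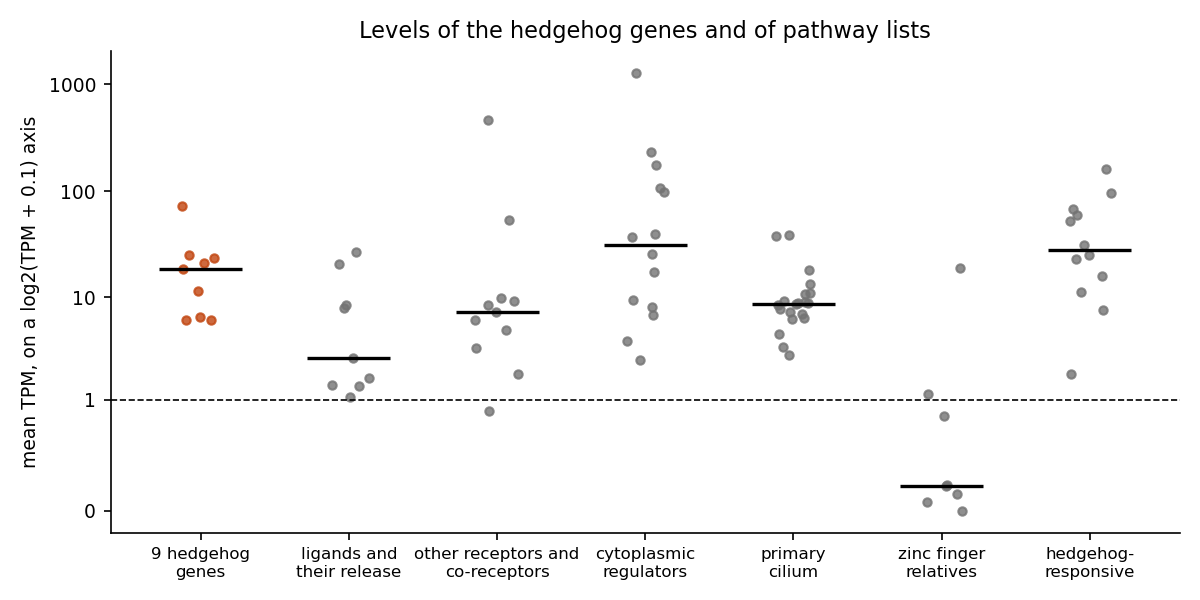
Mean TPM over the 2 libraries, drawn on a log2(TPM + 0.1) axis, of the 9 hedgehog genes and the genes of the 6 further lists of pathway genes and Gli relatives, 1 point per gene, a line at each list's median and a dashed line at 1 TPM. The hedgehog genes span 6.04 to 71.6 TPM; the cytoplasmic regulators reach 1290 TPM, and most zinc finger relatives of Gli lie below 1 TPM.

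Most zinc finger relatives of the Gli genes lay below the detection limit. Of 8 genes of the Glis and Zic families, 2 were detected, Glis2 at 19.4 TPM in replicate 2 and 17.9 TPM in replicate 1, and Glis3 at 1.03 TPM in replicate 2 and 1.25 TPM in replicate 1. Glis1 was below the limit, at 0.71 TPM in replicate 2 and 0.63 TPM in replicate 1. Zic1 had 2 and 10 counts in replicate 2 and replicate 1, and Zic2 had 0 and 2 counts. All 3 Gli genes were above 5 TPM in both libraries, and 6 of the 8 relatives were below 1 TPM in both.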

How the data were processed

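Deposited tables, per gene and per transcript, were used for each library. Per the file headers, the authors' tables give expected counts (estimated reads per gene or transcript, which need not be whole), TPM and FPKM made from them, and the percent of a gene's output on each transcript. The bounds that the authors deposited beside TPM were read as a score, since no level is stated. Per the deposited readme the build is mm10 and the annotation GENCODE M4; no source used here names the quantifier or strand setting. Symbols, biotypes, exons and transcript sequences came from GENCODE M21 on GRCm38.

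Ratios were log2((TPM of replicate 2 + 1)/(TPM of replicate 1 + 1)). Alternative scalings used edgeR 4.0.16 and DESeq2 1.42.0 in R 4.3.3 on expected counts rounded to whole numbers; edgeR gave a common biological coefficient of variation of 9.70% over 17590 genes. The script was tested on simulated data. Wilson intervals are at 95%. The 95% interval of the Shh ratio in CPM is an exact binomial interval on the rounded counts of the 2 libraries, scaled by their totals. Named genes were all members and, from each list, the 4 highest, up to 4 below a TPM of 1 in both libraries, up to 2 over 1.5-fold apart, and Dhh, Boc, Cdon, Sufu, Kif7, Foxf1, Foxl1 and Bmp4. A few genes under this rule are not reported here. The members and lists were chosen with earlier results of these data known.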

Additional observations from a re-analysis of the deposited data

How the results depend on the processing

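Of 265 recomputed values, 213 were labelled the same and 52 moved. Levels, medians, shares and the Ptch1 to Smo ratio were labelled the same where they lay within the SD of the 2 libraries. A value from either library alone always meets that limit, so those settings could not move them. Counts and orders were labelled the same where they lay within 1.5-fold, and log2 ratios where they lay within the SD over the 9 members. No member passed 1.5-fold, so no call could reverse. With edgeR scaling the log2 ratios of Gli2 and Gli3 changed sign, to 0.149 and 0.051. All 9 members were detected, and 0 were over 1.5-fold apart, under every alternative run for these counts. The first 6 places in the order of levels were the same under posterior mean TPM, FPKM, TPM over mouse genes only, either library alone and transcripts of at least 500 bases; the last 3 places, held by Shh, Gli1 and Gli2, changed under posterior mean TPM and in replicate 1 alone, and Gli1 and Gli2 changed places in replicate 2 alone. The share of all genes over 1.5-fold apart (4.61%) was 2.11% with no filter and 2.44% at a TPM of at least 5. The Gli3 share of Gli TPM (48.4%) was 47.0% with posterior mean TPM, 56.5% with expected counts and 52.0% over transcripts of at least 500 bases. The Gli2 share (25.7%) was 28.3%, 23.9% and 20.0%, and the Gli1 share (25.9%) was 24.7%, 19.6% and 27.9%, under the same settings. The ratio of Ptch1 to Smo (0.893) was 0.916 with posterior mean TPM. Expected counts do not correct for length. FPKM and TPM over mouse genes only scale all genes of a library by the same factor, so levels and medians that moved under them changed in unit only. For the other moves the cause was not tested. Depth limits the shares of short transcripts: Gli2-202 rests on 7.0 and 15.2 estimated counts, and the Ptch1 transcript of 305 bases on 4.7 and 2.6, in replicate 2 and replicate 1. No paired analysis was possible because the libraries form 1 group.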
